A study of Drosophila melanogaster with 26 samples.

Results

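Cytoplasmic ribosomal protein transcripts were represented by 95 transcripts of 69 genes among the 16623 Drosophila transcripts measured on the array. A transcript was counted as a member when its deposited values could be matched to an entry with a symbol of RpL or RpS plus a digit in the study's own lists of transcripts, which gave 58 transcripts of 42 large subunit genes (RpL) and 37 transcripts of 27 small subunit genes (RpS). Of the 95 members, 81 were named through a list of transcripts with a high level at 1 to 3 hours in PGCs of the wild type and 14 only through lists of transcripts sorted by their change over time in wild-type PGCs. Of these 14, 8 came from the list of transcripts that rise at 3 to 5 hours (RpL13A, RpL22, RpL34a, RpL38, RpL29-RB, RpS21-RA and RpS25-RB among them), 4 from the list that rise at 5 to 7 hours (RpL17-RD, RpL28-RB, RpL28-RD and RpS7-RC), 1 from the list that fall at 3 to 5 hours (RpS7-RD) and 1 from the list without change at 5 to 7 hours. The wild-type changes of these 14 were therefore used in choosing them, and in each comparison that uses WT PGCs their counts are given apart from those of the other 81.

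Each ribosome is built from ribosomal RNA and a fixed set of ribosomal proteins, most of which are present in a single copy per ribosome. The large subunit forms peptide bonds and carries the tunnel through which the new protein leaves, and the small subunit holds the mRNA and reads its codons. Ribosomal protein mRNAs are among the most abundant in growing cells. The early fly embryo starts with mRNAs loaded by the mother, clears part of them and then switches on its own genome, a handover called the maternal-to-zygotic transition (MZT). Primordial germ cells (PGCs, also called pole cells) are the first cells to form in this embryo, give rise to the eggs or sperm of the adult, and start to transcribe their genome later than the somatic cells around them. Smaug is an RNA-binding protein that represses and clears maternal mRNAs.

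The study sorted live cells from embryos that carried VASA-GFP, a fluorescent fusion to the germ cell protein Vasa, and hybridised the amplified RNA to NimbleGen arrays, with 2 samples per array. The 26 samples formed 7 groups: PGCs of smaug mutants (smg) at 1 to 3 hours (n = 3), 3 to 5 hours (n = 3) and 5 to 7 hours (n = 4) of embryogenesis, wild-type (WT) PGCs at the same 3 times (n = 4 each), and WT somatic cells, the cells low in green fluorescence, at 1 to 3 hours (n = 4). The stocks named were w1118, VASA-GFP/CyO with PrDr/TM3,Sb, VASA-GFP/CyO with smg1/TM3,Sb, and the deficiency Df(3L)Scf-R6 over TM3,Sb. Mutant embryos were laid by mothers carrying smg1 over this deficiency, so that the mother and not the embryo defined the genotype, and all groups carried the VASA-GFP transgene. The labels call the samples of a group biological replicates, while the methods speak of biological or technical replicates. The p-values therefore measure the spread between these samples, which may in part be technical.

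The markers matched the labels, with limits that touch the results below. The 2 smg transcripts were lower in smg than in WT PGCs at 1 to 3 hours, with log2 differences of -3.09 and -2.18 (limma adjusted p = 0.00812 and 0.00129), and at 3 to 5 hours, with -1.11 and -0.94 (limma adjusted p = 0.000747 and 0.00185). At 5 to 7 hours the differences of -1.40 and -0.84 did not pass the test (limma adjusted p = 0.286 and 0.125), although for neither transcript did a smg sample overlap with a WT sample of its age. The summed linear signal of 7 germ cell markers (nos, osk, pgc, gcl, aub, piwi and orb) lay between 39015 and 201558 in PGC samples and between 10456 and 13408 in somatic samples, and that of 6 somatic markers (sna, Cg25C, zfh1, Doc1, tld and en) between 70191 and 85918 in somatic samples. In WT PGCs at 5 to 7 hours, replicates 3 and 4 had somatic marker sums of 32493 and 36256, against 4155 and 4372 in replicates 1 and 2. Per the labels the PGC samples were labelled with Cy5 except smg PGCs at 3 to 5 hours, which carry Cy3 as the somatic samples do, so that dye and group cannot be told apart in the comparison of PGCs with somatic cells or in any comparison that involves smg PGCs at 3 to 5 hours. The methods give another scheme, with Cy3 for WT and Cy5 for smg PGCs, under which dye and genotype cannot be told apart at any age. The comparisons of WT PGCs at 1 to 3 hours with somatic cells, with WT PGCs at 3 to 5 hours and with smg PGCs at 1 to 3 hours share the same 4 WT samples and are not independent.

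Ribosomal protein transcripts were among the brightest on the arrays in all 7 groups, which is a description only, since 81 of the 95 had been chosen for a high level in WT PGCs. On the log2 scale of the deposited intensities, the median over members averaged 14.95 ± 0.05, 14.97 ± 0.11 and 15.10 ± 0.08 in smg PGCs at the 3 times in order (SD over samples, n = 3, 3 and 4), 14.32 ± 0.12, 14.64 ± 0.12 and 14.90 ± 0.13 in WT PGCs at these times (n = 4 each), and 14.79 ± 0.16 in WT somatic cells (n = 4). The samples of WT PGCs at 1 to 3 hours, at 14.22 to 14.50, overlapped with those of WT PGCs at 3 to 5 hours, at 14.49 to 14.77, and with no other group. Of the 167 brightest transcripts of a group, the top 1 percent, members made up 50, 49 and 55 in smg PGCs, 32, 42 and 54 in WT PGCs in the order of the times, and 41 in somatic cells. For 59 of the 95 members the lowest of the 7 group means was that of WT PGCs at 1 to 3 hours, as it was for 10.8 percent of all transcripts. This held for 49 of the 81 members named by their level in that same group and for 10 of the other 14. Signals of different probes reflect brightness and not molecule numbers, so each transcript is compared below with itself between groups only. Since the arrays had been quantile normalized, a change in total RNA per cell would not be seen, and fewer cells of a type and less RNA per cell cannot be told apart. The deposited transcript values still differed slightly between samples, with medians over all transcripts of 7.62 to 8.02.

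**Figure D1:**
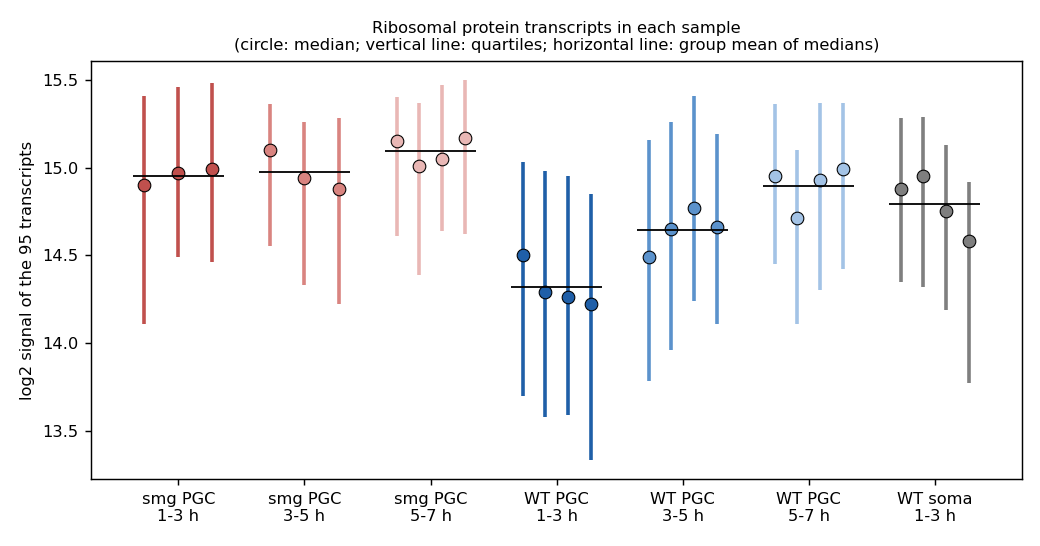
Median log2 signal of the 95 ribosomal protein transcripts in each of the 26 samples (vertical axis, log2 of the deposited intensity), by group (horizontal axis), with smg PGC groups left, WT PGC groups next and WT somatic cells right; points are samples and bars are group means. The smg PGC samples at 1 to 3 hours, at 14.90 to 14.99, lie above the WT PGC samples of that age, at 14.22 to 14.50.

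At the gene level the brightest members over the 26 samples were RpL5, which carries the small 5S ribosomal RNA into the large subunit, RpL12, found near the base of the stalk that receives the translation factors, and RpL10, which joins the large subunit late in its assembly. Their group means ran between 15.39 and 15.94 for RpL5, 15.49 and 15.86 for RpL12, and 15.26 and 15.98 for RpL10, close to the highest signal of any transcript on an array, which was 15.83 to 15.99. The dimmest were RpL22, with group means of 11.03 to 12.21, RpL34a, with 11.22 to 13.54, and RpL24-like, with 12.56 to 13.73. Replicates agreed closely for members: the median SD of a member within a group was 0.11 to 0.20, against 0.22 to 0.57 for all transcripts.

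The comparison of WT PGCs with WT somatic cells at 1 to 3 hours asked how the germ line differed from the soma at the time the PGCs form. Ribosomal protein transcripts were lower in PGCs, with a median log2 difference of -0.29 over the 95 members where the median over all transcripts was 0.15. Tested with limma over all 16623 transcripts at an adjusted p threshold of 0.05, 40 members were lower in PGCs and 1 was higher, while of all transcripts 25.3 percent were lower and 30.2 percent higher. Of the 95 members, 12 were called lower by more than 2-fold, while 17.5 percent of all transcripts were. These were 4 of the 81 members named by their level and 8 of the 14 named by their change over time. Both subunits took part: 26 of 58 large subunit and 14 of 37 small subunit transcripts were lower. Among the 81 members named by their level, 31 were lower and 0 higher in PGCs (limma, with 34 lower and 0 higher at an unadjusted p under 0.05), and of the other 14, 9 were lower and 1 was higher. Among these 81, the median difference was -0.14 over the 41 brighter members and -0.51 over the 40 dimmer ones. With each sample centred on its own median, which moved the median of all transcripts to 0.41, 25 members were lower and 10 higher, and the median member difference was -0.03.

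The largest difference at the gene level was that of RpL34a, a large subunit protein with a close paralog that was not among the members. Its log2 signal was 11.32, 11.00, 11.31 and 11.26 in the 4 PGC samples and 12.73, 12.92, 12.70 and 13.17 in the 4 somatic samples. All PGC samples lay more than 1 log2 unit below all somatic samples, a difference of -1.66 ± 0.16 (SE, limma adjusted p = 1.8e-05, 4 of 4 samples). RpL15, a large subunit protein set deep in the ribosomal RNA, had 14.43, 13.86, 14.10 and 14.19 in PGCs and 15.38, 15.46, 15.16 and 14.86 in somatic cells. The groups did not overlap, and the difference was -1.07 ± 0.18 (limma adjusted p = 0.000863). RpL22, an RNA-binding protein on the outer face of the large subunit, had 11.29, 11.10, 11.24 and 10.47 in PGCs and 12.44, 12.28, 12.33 and 11.78 in somatic cells, a difference of -1.18 ± 0.23 (limma adjusted p = 0.00162). RpL38, a small protein of the large subunit, had 11.75, 11.14, 12.00 and 12.05 in PGCs and 13.11, 13.34, 13.24 and 11.90 in somatic cells. Its difference of -1.16 ± 0.34 (limma adjusted p = 0.0162) came with an overlap of the groups, because somatic replicate 4 lay with the PGC samples. RpL34a, RpL22 and RpL38 had been named through their rise in WT PGCs after 1 to 3 hours, which uses the same 4 PGC samples, whereas RpL15 had been named through its level. Further genes named by their level and lower in PGCs were RpS21 (-0.86), RpL35 (-0.85), RpL41 (-0.82), RpS3A (-0.69) and RpS28b (-0.64), and no gene was higher when each was represented by its brightest transcript (limma, 26 of 69 genes lower at adjusted p under 0.05, and 28 lower and 0 higher at an unadjusted p under 0.05).

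**Figure D2:**
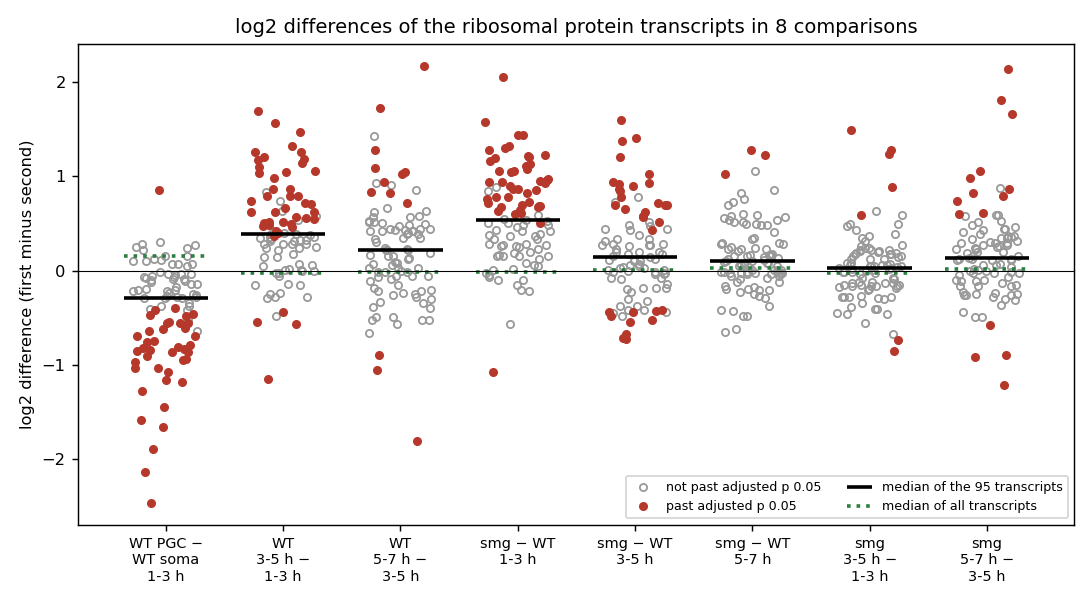
Log2 differences of the 95 ribosomal protein transcripts (vertical axis, log2 units, first group minus second) in 8 comparisons (horizontal axis), with 1 point a transcript, filled where the limma adjusted p was under 0.05, a solid line at their median and a dotted line at the median of all transcripts. The points lie mostly below 0 for WT PGCs against somatic cells (median -0.29) and mostly above 0 for smg PGCs against WT PGCs at 1 to 3 hours (median 0.54).

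Over time in WT PGCs the study asked which transcripts are cleared and which are newly made. From 1 to 3 hours to 3 to 5 hours the ribosomal protein transcripts went up, with a median change of 0.39 where the median over all transcripts was -0.03. By limma 40 members rose and 4 fell, while of all transcripts 15.6 percent rose and 16 percent fell. Among the 81 members named by their level 30 rose and 3 fell, and of the 14 named by their change over time 10 rose and 1 fell, which the choice of these 14 already set. Marker sums moved with this step as well: the germ cell sum was 134138 to 148749 at 1 to 3 hours and 68714 to 82385 at 3 to 5 hours, and the somatic sum 6580 to 8210 and then 8573 to 11974. The single markers did not all move with their sum. By group medians aub rose (12.39 to 12.66) while the other germ cell markers fell. Of the somatic ones, sna (10.59 to 8.31) and tld (5.19 to 4.72) fell, zfh1 stayed level, and Cg25C, Doc1 and en rose. The study lists osk, gcl, orb and sna as falling at this step and Doc1 and en as rising. The sums therefore do not measure cell composition alone. The part of the marker sums in the result was not tested. The rise was called and above 2-fold in 6 of the 81 members named by their level, while it was in 9.02 percent of all transcripts. It was also above 2-fold in 8 of the 14 named by their change over time. When each gene was represented by 1 transcript, 27 of 69 genes rose and 2 fell. The 69 include RpL13A, RpL22, RpL34a and RpL38, which had been named through this rise.

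RpL35, which lines the rim of the exit tunnel of the large subunit, had 14.14, 13.70, 13.73 and 14.12 at 1 to 3 hours, 14.98, 15.03, 15.11 and 15.13 at 3 to 5 hours, and 14.50, 13.93, 14.20 and 14.04 at 5 to 7 hours. It rose by 1.14 ± 0.15 at the first step (limma adjusted p = 0.000862), with no overlap, and fell at the second step (log2 difference -0.89 ± 0.18, limma adjusted p = 0.0462). RpL15 had the 4 values given above at 1 to 3 hours, 15.27, 15.21, 15.21 and 15.12 at 3 to 5 hours, and 14.95, 14.83, 15.00 and 14.96 at 5 to 7 hours, and rose by 1.05 ± 0.15 at the first step (limma adjusted p = 0.00114). RpS21, a small subunit protein, had 15.00, 14.55, 14.75 and 14.51, then 15.74, 15.65, 15.85 and 15.82, then 15.38, 15.17, 14.81 and 15.60, a rise of 1.06 ± 0.15 at the first step (limma adjusted p = 0.00114). RpL41, the shortest of the ribosomal proteins, rose by 1.03 and RpS28b by 0.74. Of the genes named through their rise, RpL34a had 12.55, 12.46, 12.54 and 12.38 at 3 to 5 hours and 13.56, 13.08, 13.32 and 13.28 at 5 to 7 hours, so that it was higher at each later time without overlap. RpL38 had 12.67, 13.03, 13.10 and 13.21 at 3 to 5 hours and 13.92, 13.50, 12.94 and 13.06 at 5 to 7 hours, higher at 3 to 5 than at 1 to 3 hours without overlap.

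RpL21 and RpS3 went the other way at 3 to 5 hours. RpL21, another large subunit protein, had 14.78, 14.94, 14.85 and 14.69 at 1 to 3 hours, 14.03, 14.26, 14.46 and 14.23 at 3 to 5 hours, and 15.48, 15.11, 15.12 and 15.02 at 5 to 7 hours. It fell at the first step (log2 difference -0.57 ± 0.14, limma adjusted p = 0.0142) and rose by 0.94 ± 0.19 at the second (limma adjusted p = 0.0438), and none of the 3 times overlapped with the next. RpS3, which lines the channel where the mRNA enters the small subunit, likewise fell by 0.44 on the log2 scale at the first step and rose by 0.82 at the second (limma adjusted p = 0.0285 and 0.0438).

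From 3 to 5 hours to 5 to 7 hours fewer members changed in WT PGCs. By limma 10 rose and 3 fell, while of all transcripts 1.72 percent rose and 1.73 percent fell (3.45 percent in all), and the median change was 0.22. Of the 81 members named by their level 6 rose and 2 fell, and of the other 14, 4 rose and 1 fell. RpS5a rose by 1.09 ± 0.21 (limma adjusted p = 0.0428) and RpL24-like by 1.02 ± 0.18 (limma adjusted p = 0.0375). RpL31, which sits beside RpL35 at the exit of the tunnel, had 15.37, 15.15, 15.00 and 14.84 at 1 to 3 hours, 15.19, 15.40, 15.65 and 15.46 at 3 to 5 hours, and 14.71, 14.38, 14.03 and 14.38 at 5 to 7 hours. Its fall at the second step (log2 difference -1.05 ± 0.21, limma adjusted p = 0.0431) came with no overlap of the groups. These values are of its brightest transcript, RpL31-RA. The other, RpL31-RC, was not called at this step (log2 difference -0.25). It had 14.40, 14.23, 14.55 and 14.50 at 3 to 5 hours and 14.31, 14.06, 13.88 and 14.42 at 5 to 7 hours, which overlapped. Without replicates 3 and 4 of this last group, which had high somatic marker sums, 16 members passed. The count was 0 when any 1 of the 4 samples at 3 to 5 hours was left out (limma, with 28 to 33 members at an unadjusted p under 0.05), and 3, 5 and 3 without replicates 1, 3 and 4 at 5 to 7 hours.

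**Figure D3:**
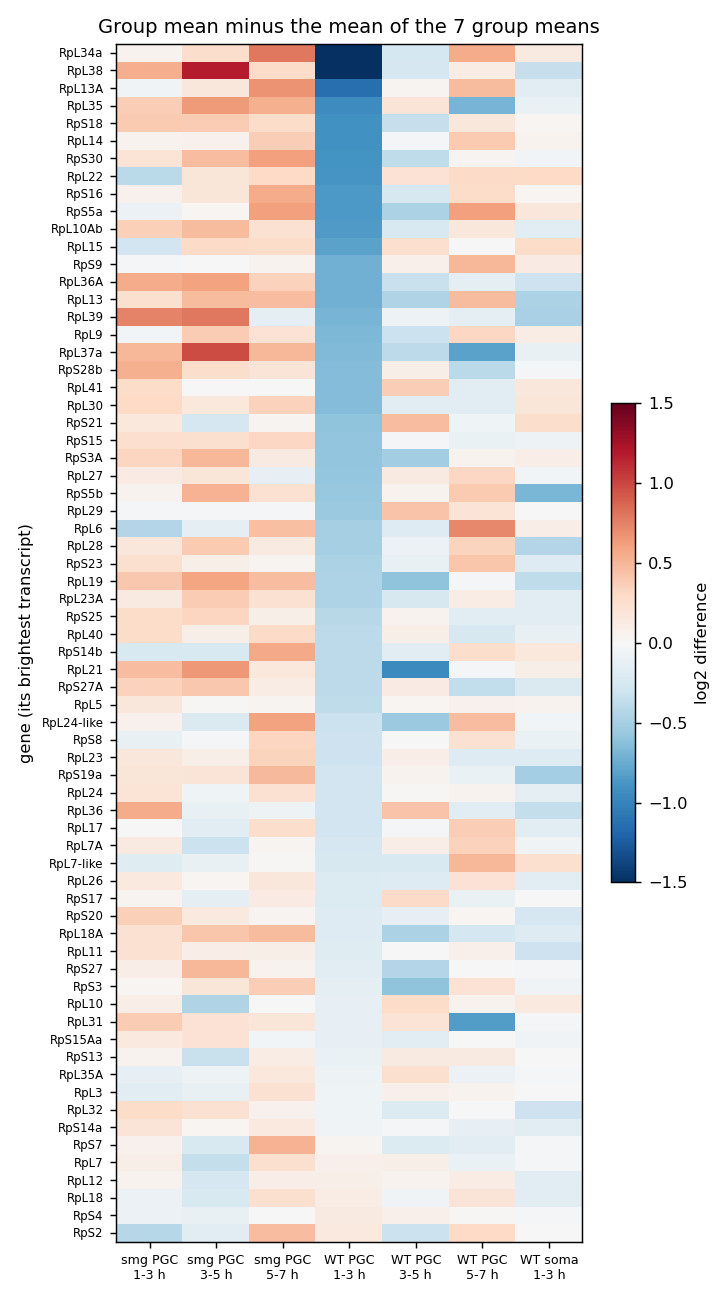
Group mean log2 signal of ribosomal protein genes, each by its brightest transcript (down the page), in the 7 groups (horizontal axis), drawn as the colour of its difference from the mean of the gene's 7 group means, in log2 units with the ends of the colour scale holding all values beyond them. Genes are sorted by WT PGCs at 1 to 3 hours, where RpL34a, with a group mean of 11.22, stands at the top and RpS2 at the bottom.

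The comparisons of smg with WT PGCs asked which transcripts depend on Smaug. At 1 to 3 hours ribosomal protein transcripts were higher in the mutant, with a median log2 difference of 0.54 where the median over all transcripts was -0.01. By limma 44 members were higher and 1 was lower, while of all transcripts 12.7 percent were higher and 10.1 percent lower. Among the 81 members named by their level 38 were higher and 0 lower (limma, with 51 higher and 1 lower at an unadjusted p under 0.05), and of the other 14, 6 were higher and 1 lower. Of the 44, 18 passed 2-fold, 12 of the 81 and 6 of the other 14, while 7.46 percent of all transcripts did. In 68 of 95 members the 3 smg samples did not overlap with the 4 WT samples, as in 34.1 percent of all transcripts, of which 22.8 percent were called. Without replicate 3 of the smg PGCs 24 members were called in place of 45. Germ cell marker sums moved with this difference, at 191762 to 201558 in smg and 134138 to 148749 in WT PGCs, as did somatic marker sums, at 3087 to 5343 in smg and 6580 to 8210 in WT PGCs. By group medians gcl went against its sum (14.54 in smg and 14.86 in WT PGCs), as did sna (10.62 and 10.59) and tld (5.40 and 5.19). The other markers went with theirs. The study names orb and gcl among transcripts that need Smaug for their decay, so the germ cell sum does not measure cell composition alone. The part of the marker sums in the result was not tested.

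RpL38 had 13.62, 14.07 and 13.68 in smg PGCs, against 11.75, 11.14, 12.00 and 12.05 in WT PGCs. This was the largest difference at the gene level, 2.05 ± 0.26 (SE, limma adjusted p = 0.00225). RpL34a had 12.62, 12.98 and 12.81 in smg PGCs, against 11.32, 11.00, 11.31 and 11.26 in WT PGCs, a difference of 1.58 ± 0.17 (limma adjusted p = 0.00129). Both had been named through their rise from these same 4 WT samples, so that their differences are a description and not independent of the choice. RpL39, a very small protein inside the exit tunnel, had 14.69, 15.15 and 15.09 in smg PGCs, against 14.02, 13.47, 13.40 and 13.26 in WT PGCs, and was higher by 1.44 ± 0.23 (limma adjusted p = 0.00545). RpL35 had 15.19, 15.37 and 15.16 in smg PGCs and was higher by 1.32 ± 0.18 (limma adjusted p = 0.00327). In all 4 of these genes every smg sample lay above every WT sample. RpL37a, a zinc-binding protein of the large subunit, had 15.27, 15.58 and 15.49 in smg PGCs, against 14.35, 14.29, 14.19 and 14.33 in WT PGCs, and was higher by 1.16 ± 0.15 (limma adjusted p = 0.00265). RpL15, by contrast, had 14.71, 14.56 and 14.66 in smg PGCs, above its 4 WT values, and its difference of 0.50 did not pass the test (limma adjusted p = 0.0822).

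At 3 to 5 hours members were called in both directions. By limma 22 were higher and 10 lower in smg PGCs, while of all transcripts 16.2 percent were higher and 14.8 percent lower, and the median difference was 0.14. Of the 81 members named by their level 17 were higher and 10 lower, and of the other 14, 5 were higher and 0 lower. The lower count was 4 and 3 without smg replicates 2 and 3, and 4, 4 and 3 without WT replicates 2, 3 and 4, while the higher count stayed between 19 and 26 whichever sample was left out. The smg samples of this age carried the other dye per the labels. Germ cell marker sums were 143720 to 154290 in smg and 68714 to 82385 in WT PGCs, and somatic sums 4383 to 6754 in smg and 8573 to 11974 in WT PGCs. By group medians aub went against its sum (12.12 in smg and 12.66 in WT PGCs), as did sna (10.00 and 8.31) and tld (5.06 and 4.72). The other markers went with theirs. The part of dye and markers in the result was not tested. With each sample centred on its median 30 were higher and 8 lower, and with the samples quantile normalized again 21 were higher and 15 lower. RpL21 had 15.79, 15.91 and 15.85 in smg PGCs, against 14.03, 14.26, 14.46 and 14.23 in WT PGCs, which made it the largest difference at 1.60 ± 0.14 (limma adjusted p = 0.000325). These smg values of RpL21 lie close to the top of the scale, so its difference may be a lower limit. RpL38 had 14.48, 14.45 and 14.32 in smg PGCs, and was higher than in WT PGCs by 1.41 ± 0.16 (limma adjusted p = 0.0008). RpL37a had 15.96, 15.92 and 15.92 in smg PGCs, against 14.41, 14.61, 14.74 and 14.51 in WT PGCs, a difference of 1.37 ± 0.13 (limma adjusted p = 0.000443) that is a lower limit, as these smg values lie at or next to the top of the scale. RpL19, which forms a bridge between the subunits, was higher by 1.20, RpS3A by 1.02 and RpL39 by 0.86. Lower in smg PGCs, each by its brightest transcript, were RpL10, RpS21, RpL36 (-0.54), RpS13 (-0.48) and RpL7 (-0.44). RpL10 had 15.20, 15.32 and 15.25 in smg PGCs, against 15.98, 15.97, 15.98 and 15.99 in WT PGCs, and was lower by at least 0.72 ± 0.12 on the log2 scale (limma adjusted p = 0.00319), since its WT values were at the top of the scale. Of its other transcripts, RpL10-RD was lower too, at 15.16, 15.01 and 15.07 in smg and 15.41, 15.40, 15.62 and 15.62 in WT PGCs. FBtr0070048 overlapped between the genotypes (difference 0.01). RpS21 had 15.26, 15.01 and 14.89 in smg PGCs, against 15.74, 15.65, 15.85 and 15.82 in WT PGCs (log2 difference -0.71 ± 0.14, limma adjusted p = 0.00793). Its other transcripts were split. FBtr0077624 was lower too, at 14.68, 14.48 and 14.20 in smg and 15.08, 15.04, 15.23 and 15.14 in WT PGCs. RpS21-RA was higher without overlap, at 13.89, 14.11 and 14.16 in smg and 13.60, 13.50, 13.73 and 13.67 in WT PGCs (log2 difference 0.43).

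At 5 to 7 hours 3 members were higher in smg PGCs and 0 lower (limma, with 20 higher and 3 lower at an unadjusted p under 0.05), while of all transcripts 1.53 percent were higher and 0.999 percent lower (2.53 percent in all). All 3 were among the 81 named by their level. The median difference was 0.10. RpL37a had 15.26, 15.31, 15.55 and 15.66 in smg PGCs, against 14.36, 13.88, 14.18 and 14.23 in WT PGCs, a difference of 1.28 ± 0.21 (limma adjusted p = 0.0241). It was thus above WT at all 3 ages with no overlap. RpL35 had 15.42, 15.35, 15.50 and 15.33 in smg PGCs and was higher by 1.23 ± 0.20 (limma adjusted p = 0.0247). RpL31 had 15.42, 15.42, 15.38 and 15.36 in smg PGCs, against 14.71, 14.38, 14.03 and 14.38 in WT PGCs, a difference of 1.02 ± 0.21 (limma adjusted p = 0.0458). Without WT replicates 3 and 4, which had the high somatic marker sums, 2 members passed and RpL31 did not (difference 0.85, limma adjusted p = 0.0599). No member passed when any 1 smg sample, or WT replicate 2 or 4, was left out (limma, with 15 to 23 members at an unadjusted p under 0.05).

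Within smg PGCs few members changed with time. At the step to 3 to 5 hours 5 rose and 2 fell by limma (1 and 1 of the 81 named by their level), while of all transcripts 6.89 percent rose and 8.64 percent fell, and the median change was 0.03. RpL15 was the one gene called when each was represented by 1 transcript. It had 14.71, 14.56 and 14.66 at 1 to 3 hours, 15.17, 15.25 and 15.28 at 3 to 5 hours, and 15.35, 15.38, 15.00 and 15.15 at 5 to 7 hours, a rise of 0.59 ± 0.15 at the first step (limma adjusted p = 0.0437). With each sample centred on its median 4 rose and 5 fell, with the samples quantile normalized again 4 rose and 3 fell, and leaving out any 1 of the 6 samples gave 1 to 3 members. At the step to 5 to 7 hours 11 rose and 4 fell (7 and 1 of the 81), while of all transcripts 10.2 percent rose and 8.80 percent fell. The count was 6 and 7 without replicates 2 and 3 at 3 to 5 hours, and 9 and 8 without replicates 1 and 4 at 5 to 7 hours. RpL24-like rose by 0.82, RpS14b by 0.79, RpS7 by 0.74 and RpS2 by 0.61. RpL39 had 15.12, 15.08 and 14.88 at 3 to 5 hours and 14.28, 13.98, 13.98 and 14.19 at 5 to 7 hours (log2 difference -0.92 ± 0.17, limma adjusted p = 0.0107), and RpL38 had 13.95, 13.75, 13.23 and 13.17 at 5 to 7 hours (log2 difference -0.89 ± 0.24, limma adjusted p = 0.0356). For both the 2 times did not overlap.

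The step from 1 to 3 hours to 3 to 5 hours was then compared between the genotypes, as the smg step minus the WT step. It was smaller in smg for most members, with a median of -0.40, and 22 members were called lower and 1 higher by limma, while of all transcripts 4.95 percent were lower and 5.01 percent higher (9.96 percent in all). A difference of steps equals the smg minus WT difference at the later time minus that at the earlier time. It is therefore not independent of those comparisons. Members also started higher in smg PGCs, at a median of 14.95 against 14.32, and the top of the scale limits a rise. The part of this limit was not tested. Of the 81 members named by their level 18 were lower and 1 higher, and of the other 14, 4 were lower and 0 higher. For RpS21 the difference of the steps was -1.47 ± 0.22 (limma adjusted p = 0.00303), for RpL36 -1.37 ± 0.31, for RpL41 -1.31 ± 0.28 and for RpL34a -1.06 ± 0.19 (limma adjusted p = 0.0161, 0.0125 and 0.00699). RpL34a had been chosen for its WT rise at this step, so its value is a description. RpL21 was the one member in the other direction, at 0.75 ± 0.18 (limma adjusted p = 0.0231): it fell in WT PGCs and was 15.72, 15.66 and 15.63 at 1 to 3 hours and 15.79, 15.91 and 15.85 at 3 to 5 hours in smg PGCs. The count was 12 to 15 without smg replicate 2 or 3 at 1 to 3 hours, smg replicate 2 at 3 to 5 hours or WT replicate 3 at 3 to 5 hours. For the step to 5 to 7 hours 2 members were called higher and 3 lower (1 and 2 of the 81), while of all transcripts 1.68 percent were higher and 1.60 percent lower (3.28 percent in all). RpL21 was lower by 1.43 ± 0.24 on the log2 scale (limma adjusted p = 0.0107), with 15.15, 15.49, 15.26 and 15.54 in smg PGCs at 5 to 7 hours, RpS3A by 0.93, and RpL31-RA was higher by 1.01 ± 0.26 (limma adjusted p = 0.0492). For RpL31-RC this difference was 0.56 and was not called. With each sample centred on its median 0 were higher and 4 lower, with the samples quantile normalized again 2 were higher and 2 lower, and leaving out 1 sample in turn gave 1 to 6 members.

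Paralogs differed in how they changed. A pair of related genes can be compared through the difference of their log2 signals within a sample. A change of that difference between groups is free of any constant difference in brightness between their probes. This was tested for 4 pairs between PGCs and somatic cells at 1 to 3 hours with an exact two-sided permutation test, for which 4 against 4 samples allow no p below 0.0286, and the test was chosen after the values had been seen. RpS5a and RpS5b encode the small subunit protein at the channel where the mRNA leaves, and RpS5b is known in flies as the copy used mainly in the germ line. RpS5a had 13.25, 12.97, 13.07 and 13.17 in WT PGCs and 14.33, 14.32, 14.11 and 13.84 in somatic cells, a difference of -1.03 ± 0.16 (limma adjusted p = 0.000403). RpS5b had 13.07, 13.20, 13.03 and 13.14 in WT PGCs and 13.01, 13.09, 12.79 and 13.07 in somatic cells, which overlapped. RpS5b minus RpS5a was -0.01 ± 0.17 in PGCs and -1.16 ± 0.26 in somatic cells (SD, n = 4 each). It was 1.15 higher in PGCs with no overlap of the groups (exact permutation p = 0.0286, adjusted over 4 pairs 0.0381).

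Over time the 2 copies took different steps. In WT PGCs RpS5b rose by 0.62 ± 0.12 to 13.64, 13.67, 13.87 and 13.74 at 3 to 5 hours (limma adjusted p = 0.00532), when RpS5a was at 13.32, 13.50, 13.67 and 13.50, and RpS5a rose at the next step to 14.45, 14.20, 14.93 and 14.77, when RpS5b was at 14.08, 13.30, 14.35 and 14.53. The difference RpS5b minus RpS5a was -0.17, 0.20 and -0.70 in smg PGCs and -0.01, 0.23 and -0.52 in WT PGCs at the 3 times, so that both genotypes had the highest value at 3 to 5 hours and the lowest at 5 to 7 hours. At 1 to 3 hours both copies were higher in smg PGCs, RpS5a at 13.76, 13.90 and 14.01 (difference 0.78) and RpS5b at 13.50, 13.92 and 13.74 (difference 0.61, limma adjusted p = 0.0116 and 0.0325). The later smg samples had 14.28, 14.01 and 13.74, then 14.60, 14.37, 14.64 and 14.77 for RpS5a, and 14.50, 14.08 and 14.04, then 13.77, 13.41, 14.40 and 14.02 for RpS5b.

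RpS14a and RpS14b are neighbouring genes for the same small subunit protein, and near-identical copies of this kind may share probes, so that their signals may not be independent. The brightest RpS14a transcript, RpS14a-RB, had 15.68, 15.57, 15.53 and 15.31 in WT PGCs and 15.64, 15.40, 15.34 and 15.32 in somatic cells at 1 to 3 hours, which overlapped. The other, RpS14a-RA, had 14.78, 14.69, 14.66 and 14.76 in WT PGCs and 15.27, 15.26, 15.09 and 14.88 in somatic cells. RpS14a-RA was thus lower in PGCs without overlap (log2 difference -0.40). RpS14b had 14.14, 14.39, 14.12 and 14.12 in WT PGCs and 14.81, 14.78, 14.70 and 14.66 in somatic cells (log2 difference -0.55 ± 0.13, limma adjusted p = 0.00605). RpS14b minus RpS14a-RB was -1.33 ± 0.18 in PGCs and -0.68 ± 0.10 in somatic cells, 0.65 lower in PGCs (exact permutation p = 0.0286, adjusted 0.0381). The pair difference was not tested with RpS14a-RA, which was lower in PGCs as RpS14b was. RpS14b minus RpS14a-RB was -1.42, -1.26 and -0.59 in smg PGCs and -1.33, -1.14 and -0.61 in WT PGCs at the 3 times, and at 5 to 7 hours both genotypes were thus near the somatic value. In smg PGCs RpS14b had 14.07, 14.51 and 14.49, then 14.51, 14.38 and 14.18, then 15.11, 15.01, 15.28 and 15.20, a rise of 0.79 ± 0.17 at the last step (limma adjusted p = 0.0176), and in WT PGCs it had 14.41, 14.60, 14.43 and 14.29 at 3 to 5 hours and 14.97, 14.40, 15.09 and 14.95 at 5 to 7 hours. RpS14a-RB ranged between 15.16 and 15.80 over all PGC samples, and RpS14a-RA between 14.66 and 15.70.

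RpL24-like and RpL7-like resemble RpL24 and RpL7 in name, and were counted among the 69 genes by their symbols. Their counterparts in yeast are factors of large subunit assembly that are not part of the finished ribosome, while RpL24 bridges the subunits and RpL7 is a regular part of the large subunit. RpL24-like had 12.77, 13.09, 12.67 and 12.68 in WT PGCs at 1 to 3 hours, 12.72, 12.35, 12.69 and 12.49 at 3 to 5 hours, and 13.67, 13.40, 13.70 and 13.56 at 5 to 7 hours. In smg PGCs it had 13.20, 13.19 and 13.16, then 12.98, 12.76 and 12.97, then 13.73, 13.59, 13.77 and 13.83. Both genotypes were highest at 5 to 7 hours without overlap with the earlier times, by 1.02 in WT and 0.82 in smg PGCs over 3 to 5 hours (limma adjusted p = 0.0375 and 0.0129). RpL24 lay between 14.82 and 15.62 over all PGC samples, and RpL24-like minus RpL24 did not differ between PGCs and somatic cells at 1 to 3 hours beyond the spread (-2.19 ± 0.22 and -2.04 ± 0.26, exact permutation p = 0.371). RpL7-like had 13.78, 13.91, 13.85 and 13.71 in WT PGCs and 14.37, 14.34, 14.34 and 14.11 in somatic cells (log2 difference -0.48 ± 0.13, limma adjusted p = 0.0119), whereas RpL7 had 15.13, 15.17, 15.21 and 15.13 in WT PGCs and 15.13, 15.19, 15.00 and 14.90 in somatic cells. RpL7-like minus RpL7 was -1.35 ± 0.07 in PGCs and -0.77 ± 0.08 in somatic cells (exact permutation p = 0.0286, adjusted 0.0381). In WT PGCs RpL7-like rose by 0.72 at the step to 5 to 7 hours, to 14.54, 14.46, 14.55 and 14.62 (limma adjusted p = 0.0493), while in smg PGCs of that age it had 14.14, 13.98, 14.01 and 14.11. RpL7-like minus RpL7 stood at -1.26 ± 0.06 in smg and -0.45 ± 0.14 in WT PGCs at 5 to 7 hours. Neither gene was called between the genotypes at that age, and the pair difference was not tested there.

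**Figure D4:**
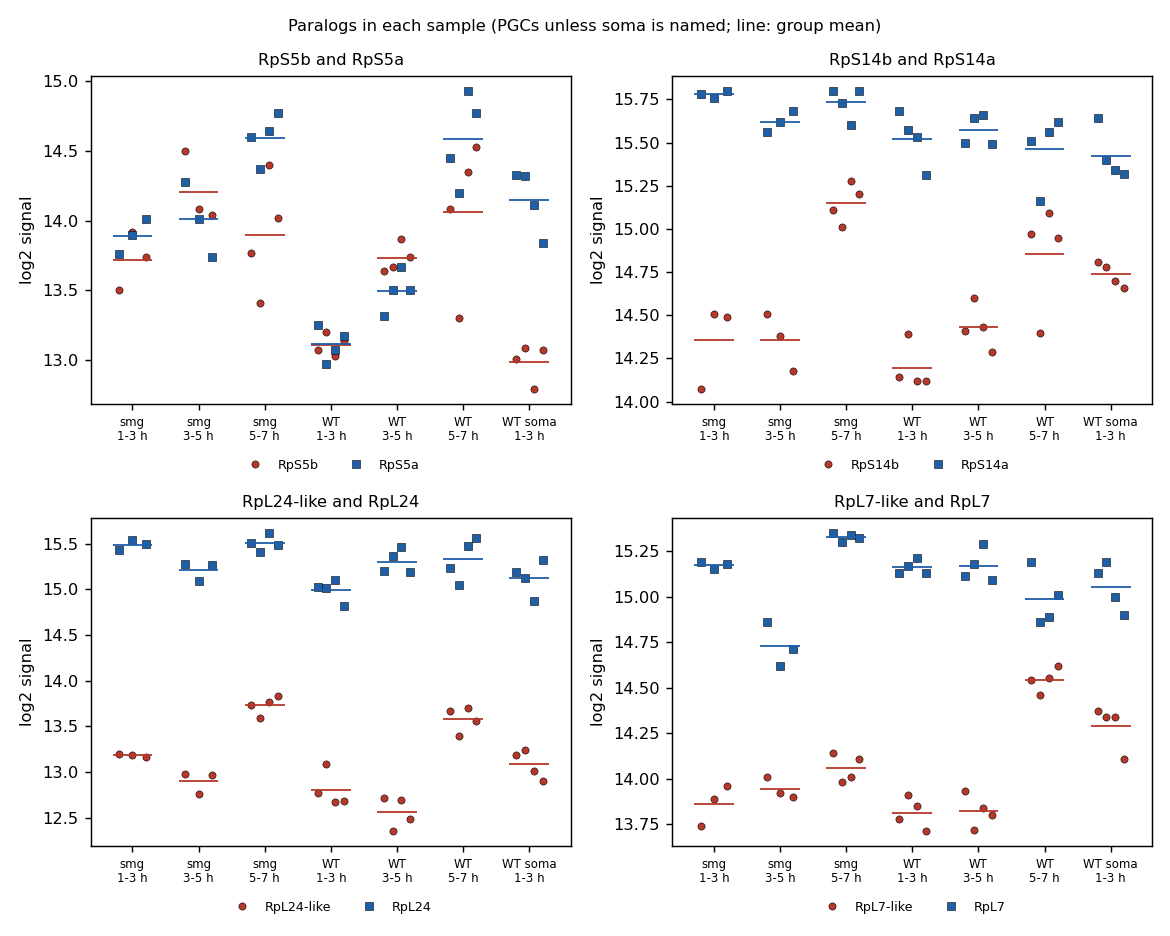
Log2 signal (vertical axis, log2 of the deposited intensity) of both genes of 4 related pairs in each sample of the 7 groups (horizontal axis), with 1 point a sample and lines at group means. The signals of RpS5b and RpS5a lie together in WT PGCs at 1 to 3 hours (mean difference -0.01) and apart in WT somatic cells (-1.16).

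Several members have a paralog that was not a member. Of these, RpS28b, RpL37a and RpL34a were higher in smg than in WT PGCs at 1 to 3 hours by 1.19, 1.16 and 1.58, while RpL22, RpS15Aa and the brightest transcript of RpS19a were not called there. RpL22 had 11.36, 11.54 and 11.62 in smg PGCs at that age. The genes RpL40 and RpS27A are read as a fusion of ubiquitin with the ribosomal protein, and the ubiquitin is split off afterwards. RpL40 had 15.60, 15.52 and 15.55 in smg PGCs, 14.79, 14.81, 14.98 and 14.96 in WT PGCs, and 15.35, 15.30, 15.08 and 14.97 in somatic cells at 1 to 3 hours. RpS27A had 14.87, 15.33 and 14.85 in smg PGCs, 14.62, 14.04, 14.23 and 14.26 in WT PGCs, and 14.72, 14.73, 14.58 and 13.78 in somatic cells. The 2 fusion genes changed alike in size: they were higher in smg PGCs by 0.67 and 0.73 (limma adjusted p = 0.0151 and 0.0399) and rose in WT PGCs at 3 to 5 hours by 0.50 and 0.51 (limma adjusted p = 0.0166 and 0.0464).

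For 19 genes the array held more than 1 transcript. Where transcripts share exons their probes can overlap, so that the transcripts of a gene are not independent, and the letter after the gene symbol is the transcript's name in the annotation used by the array. In most genes the transcripts moved together, but in some a dim transcript departed from the bright one. RpS7 is a small subunit protein, and its bright transcript RpS7-RA lay between 14.26 and 15.44 in all PGC samples. RpS7-RC had 8.44, 9.03 and 8.85 in smg PGCs at 1 to 3 hours, 9.78, 10.40 and 9.97 at 3 to 5 hours, and 12.33, 11.73, 12.69 and 12.03 at 5 to 7 hours. In WT PGCs it had 10.36, 9.91, 9.19 and 9.91, then 11.16, 10.19, 10.31 and 10.02, then 11.64, 11.31, 12.29 and 12.16, and in somatic cells 11.98, 12.06, 12.10 and 11.77. RpS7-RC was thus lower in WT PGCs than in somatic cells by 2.13 ± 0.24 on the log2 scale (limma adjusted p = 5.07e-05), lower in smg than in WT PGCs at 1 to 3 hours (log2 difference -1.07 ± 0.30, limma adjusted p = 0.0373), and rose in smg PGCs by 1.28 and then 2.14 (limma adjusted p = 0.0212 and 0.00439). It was the one member lower in smg PGCs at 1 to 3 hours. RpS7-RD, which had been named through its fall in WT PGCs at 3 to 5 hours, had 11.70, 11.63 and 11.78, then 11.14, 10.79 and 10.97, then 12.03, 11.35, 12.37 and 12.02 in smg PGCs. In WT PGCs it had 11.34, 11.28, 11.93 and 11.67, then 10.23, 10.38, 10.54 and 10.46, then 11.42, 10.74, 10.88 and 10.51, against 10.68, 10.72, 10.80 and 10.63 in somatic cells, and it was the one member higher in PGCs than in somatic cells (0.85 ± 0.17, limma adjusted p = 0.00228). That comparison uses the 4 WT samples from which its fall was taken and is not independent of the choice.

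Other dim transcripts had a course of their own. RpS25 is a small subunit protein beside the exit site of the transfer RNA, and its transcript RpS25-RB had 9.78, 10.04 and 10.00, then 10.89, 11.39 and 11.26, then 10.04, 9.66, 9.90 and 10.27 in smg PGCs. In WT PGCs it had 9.20, 9.11, 9.39 and 9.70, then 10.70, 10.78, 11.23 and 10.93, then 9.31, 9.09, 9.11 and 8.93. Both genotypes peaked at 3 to 5 hours with no overlap, and in smg PGCs the rise of 1.24 ± 0.19 and the fall after it (-1.21 ± 0.21) passed the test (limma adjusted p = 0.0132 and 0.0095), while RpS25-RA stayed between 14.91 and 15.85 in PGCs. RpL17-RD had 7.55, 7.95 and 8.98, then 8.12, 8.39 and 8.58, then 9.54, 9.70, 10.78 and 10.09 in smg PGCs, and 7.58, 7.70, 7.65 and 6.16, then 7.93, 7.72, 8.39 and 8.39, then 10.22, 10.11, 10.44 and 10.33 in WT PGCs, where it had been chosen for this rise. RpL28-RB had 8.09, 8.83 and 8.46, then 10.00, 10.29 and 9.56, then 10.85, 10.23, 11.09 and 11.15 in smg PGCs, and rose there by 1.49 ± 0.27 at the first step (limma adjusted p = 0.0197). In WT PGCs it had 8.71, 8.53, 8.30 and 7.99 at 1 to 3 hours, 2.46 below its somatic values of 10.92, 10.92, 10.96 and 10.55 (log2 difference -2.46 ± 0.19, limma adjusted p = 4.41e-06), which was the largest difference of any member in that comparison.

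RpL10 had 3 bright transcripts that differed in direction. The transcript RpL10-RD had 15.51, 15.73 and 15.02 in smg PGCs, 14.22, 14.01, 14.21 and 14.33 in WT PGCs, and 15.50, 15.51, 15.48 and 15.41 in somatic cells at 1 to 3 hours. It was lower in WT PGCs than in somatic cells by 1.28 ± 0.13 on the log2 scale (limma adjusted p = 2.73e-05) and rose in WT PGCs by 1.32 ± 0.13 (limma adjusted p = 0.000245) to 15.41, 15.40, 15.62 and 15.62 at 3 to 5 hours. A further RpL10 transcript, FBtr0070048, had 15.53, 15.41, 15.02 and 15.22 in WT PGCs at 1 to 3 hours and 14.60, 14.73, 14.77 and 14.94 at 3 to 5 hours, a fall of 0.54 ± 0.16 (limma adjusted p = 0.0293), and fell likewise in smg PGCs, with 15.54, 15.69 and 15.64 and then 14.85, 14.89 and 14.56 (log2 difference -0.85 ± 0.17, limma adjusted p = 0.0227). The step of RpL10-RD to 3 to 5 hours was smaller in smg than in WT PGCs (-1.66 ± 0.23, limma adjusted p = 0.00231).

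**Figure D5:**
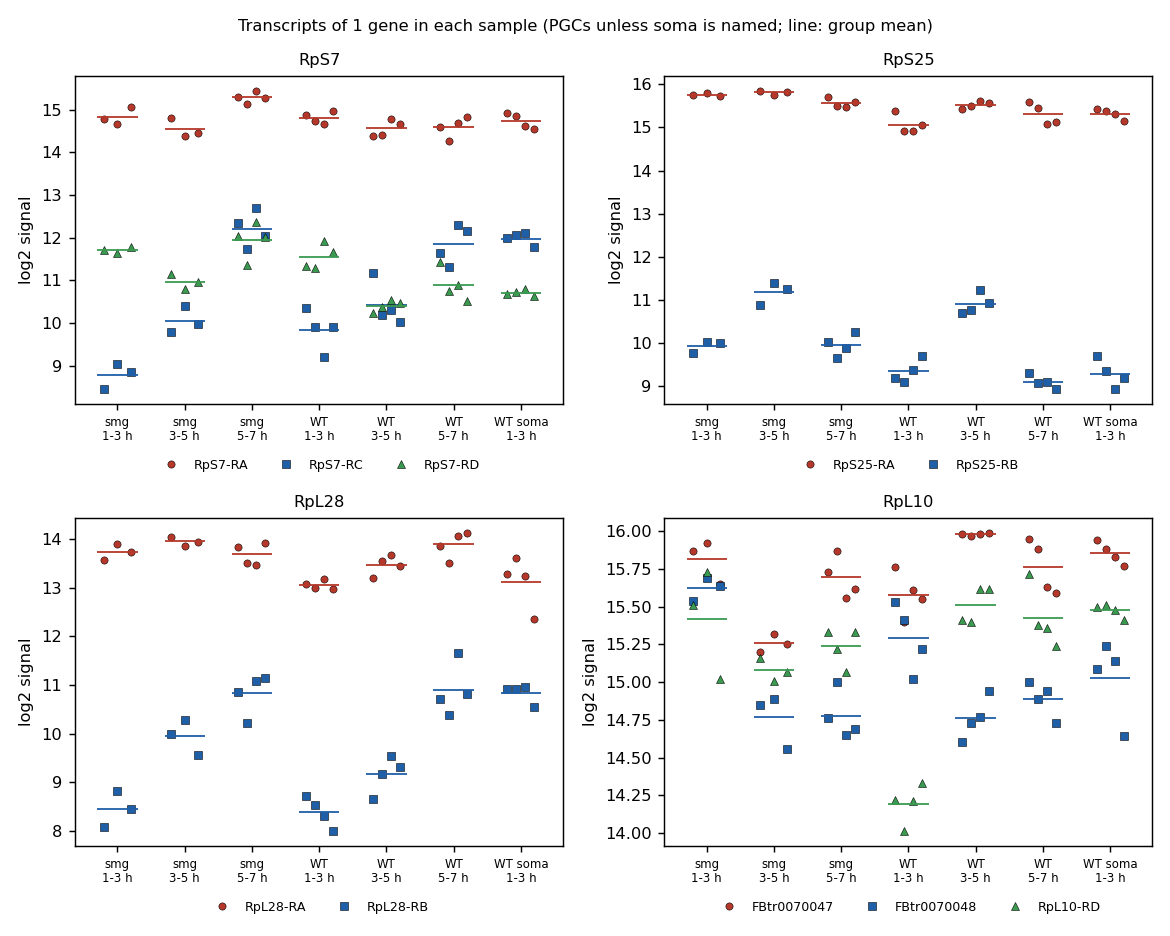
Log2 signal (vertical axis, log2 of the deposited intensity) of transcripts of RpS7, RpS25, RpL28 and RpL10 in each sample of the 7 groups (horizontal axis), with 1 point a sample and lines at group means. RpS7-RC runs between 8.44 and 12.69 in PGCs while RpS7-RA stays between 14.26 and 15.44.

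Other parts of the translation machinery, from lists that were set with earlier results of these data known, did not all share these changes. The ribosomal stalk protein RpLP2, which recruits the factors that drive elongation, rose in WT PGCs at 3 to 5 hours in both of its transcripts (1.16 and 1.14, limma adjusted p = 0.000587 and 0.0016), fell at 5 to 7 hours (-0.88 and -0.91, limma adjusted p = 0.04 and 0.049), and was higher in smg than in WT PGCs at 1 to 3 hours by 1.41 and 1.27 (limma adjusted p = 0.00168 and 0.00283). The list of stalk and surface proteins also held 1 transcript each of RpLP0 and sta, of which sta is not a stalk protein. Neither was called at the WT step to 3 to 5 hours (0.40 and 0.14, limma adjusted p = 0.0938 and 0.537) or in smg PGCs at 1 to 3 hours (-0.23 and -0.36). RpLP0 was lower in smg than in WT PGCs at 3 to 5 hours (-0.56, limma adjusted p = 0.0238). The counts that follow can be read against all transcripts, of which 30.2 percent were higher and 25.3 percent lower in WT PGCs than in somatic cells, 12.7 percent higher and 10.1 percent lower in smg PGCs at 1 to 3 hours, 16.2 percent higher and 14.8 percent lower in smg PGCs at 3 to 5 hours, and 15.6 percent rising and 16 percent falling in WT PGCs at 3 to 5 hours. Of 6 transcripts of elongation factors, 1 was higher in smg PGCs at 1 to 3 hours and 1 rose in WT PGCs at 3 to 5 hours. Of 24 transcripts of initiation factors, 9 were higher and 9 lower in WT PGCs than in somatic cells, with a median of -0.13, and 9 were higher and 3 lower in smg than in WT PGCs at 1 to 3 hours. Of 11 transcripts for ribosome assembly and RNA polymerase I, which makes ribosomal RNA, 2 rose and 2 fell in WT PGCs at 3 to 5 hours and 3 rose at 5 to 7 hours, as 1.72 percent of all transcripts did, namely nop5 by 1.06, pit by 1.10 and Surf6 by 0.91. Of 45 transcripts of mitochondrial ribosomal proteins, which serve the separate ribosomes of mitochondria, 14 were higher and 10 lower in WT PGCs than in somatic cells, with a median of 0.17, where the cytoplasmic members had 1 higher and 40 lower. Both kinds rose in WT PGCs at 3 to 5 hours, 24 of 45 mitochondrial ones rising and 4 falling. In smg PGCs at 3 to 5 hours 9 mitochondrial ones were higher and 14 lower than in WT PGCs.

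A further 12 transcripts of 9 genes are listed in the study by CG number only and are ribosomal protein genes under their present RefSeq names. They were found after the data had been seen and were not counted as members. By limma 5 of the 12 were lower in WT PGCs than in somatic cells, 7 rose in WT PGCs at 3 to 5 hours, and 7 were higher and 1 lower in smg than in WT PGCs at 1 to 3 hours, against 25.3, 15.6, 12.7 and 10.1 percent of all transcripts. RpS12, chosen after its values were seen, stood apart in smg PGCs at 5 to 7 hours, with 7.45, 7.77, 7.69 and 7.62, against 10.12, 11.37, 13.09 and 11.96 in WT PGCs of that age (log2 difference -4.00, limma adjusted p = 0.0147). At the earlier times it had 9.09, 11.26 and 10.24, then 10.42, 10.84 and 10.76 in smg PGCs, and 10.07, 10.56, 10.04 and 9.80, then 10.97, 11.56, 12.22 and 10.97 in WT PGCs.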

How the data were processed

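Live cells sorted from Drosophila embryos were profiled on NimbleGen arrays. The authors deposited 1 table of intensity values for 26 samples, normalized by RMA with quantile normalization in NimbleScan and ArrayStar per their methods, and no scanner data were used here. The genome build of the array design was not given in the sources used here. Quantile normalization is meant to give all arrays 1 distribution of signals, which removes most shifts of the whole distribution. Precision rests on how many arrays a group has.

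The table has no gene symbols. Transcripts were named by matching deposited values to the values printed in the study's lists, which had to be equal at 6 significant digits with a tolerance of 1 in the last one, and served as a key only. Some lists hold the authors' own differences and fold changes, which were matched to the same quantities of the deposited values as part of this key and entered no result. Log2 of the deposited intensities was fitted with limma 3.58.1 (lmFit and eBayes, R 4.3.3), each time on the compared groups only. Adjusted p-values are by Benjamini-Hochberg across the 16623 transcripts, with a threshold of 0.05. The methods name SAM, which was not run, and limma was used in its place. The script was tested on simulated data. Python 3.11.15, numpy 2.4.6, pandas 2.3.3 and matplotlib 3.10.9 were used for summaries and plots.

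A gene with several transcripts was represented by the brightest over all samples. Named were up to 4 called genes per direction and comparison with the largest differences, the 3 brightest and 3 dimmest genes, paralogs, genes whose transcripts differed in a comparison by over 1 log2 unit, and the ubiquitin fusions. Members and lists were chosen with earlier results of these data known. Alternatives were all groups in 1 fit, a second quantile normalization, centring on the median, leaving out dim transcripts, the replicate number as a block, and leaving out samples. Results of 1 gene are not reported here.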

Additional observations from a re-analysis of the deposited data

Results flagged for a closer look

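Of 155 groups of 4 samples tested for a sample far from the others, 7 were picked out, and chance alone picks about 1 in 20. Somatic replicate 4 was low for RpL38 (11.90, with the others at 13.11 to 13.34), RpS27A (13.78, with 14.58 to 14.73), RpL28-RB (10.55, with 10.92 to 10.96) and RpL7-like (14.11, with 14.34 to 14.37). WT PGC replicate 1 at 5 to 7 hours was high for RpL39 (14.48, with the lowest of the others at 13.96). In WT PGCs at 1 to 3 hours, replicate 2 was high for RpS14b (14.39, with 14.12 to 14.14) and replicate 4 low for RpL17-RD (6.16, with 7.58 to 7.70).

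The change over time differed between the genotypes, as the smg step minus the WT step tested with limma for the following transcripts. For the step to 3 to 5 hours it was -1.47 for RpS21 (adjusted p = 0.00303), -1.66 for RpL10-RD (adjusted p = 0.00231), -1.06 for RpL34a (adjusted p = 0.00699), which had been chosen for its WT rise at this step, -0.96 for the brightest RpL10 transcript (adjusted p = 0.00707), a lower limit of the size since its WT values at 3 to 5 hours were at the top of the scale, -0.88 for RpL35 (adjusted p = 0.0252), -0.67 for RpL40 (adjusted p = 0.029) and 0.75 for RpL21 (adjusted p = 0.0231). For the step to 5 to 7 hours it was -1.43 for RpL21 (adjusted p = 0.0107) and 1.01 for RpL31-RA (adjusted p = 0.0492).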

How the results depend on the processing

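No named value changed direction under any alternative run. Of 102 named values, 95 kept their call with all groups in 1 fit, 102 without dim transcripts, 86 with centring, 90 with a second quantile normalization and 40 with the replicate block. With all groups in 1 fit the members called were 41 for WT PGCs and 28 for smg PGCs at the step to 5 to 7 hours, 11 for smg PGCs at the step to 3 to 5 hours, 27 for smg against WT PGCs at 5 to 7 hours, and 17 for the later difference of steps. Without dim transcripts, where fewer were tested, they were 18 and 28 for the steps of smg PGCs and 36 and 12 for the differences of steps. Without WT replicates 3 and 4 at 5 to 7 hours the later difference of steps had 9. With the replicate number as a block they were 22 and 0 for the steps of WT PGCs, 8, 8 (8 higher and 0 lower) and 0 for smg against WT PGCs at the 3 times, 3 and 0 for the steps of smg PGCs, and 11 and 1 for the differences of steps, where the counts of 0 by limma had 23, 15 and 18 at an unadjusted p under 0.05. Same-numbered samples correlated between -0.14 and 0.216, and the numbers were not taken as pairs. In smg against WT PGCs at 5 to 7 hours all same-numbered correlations were positive, at 0.033 to 0.216. Their mean was 0.104 against -0.033 for other numbers, so that some pairing there is possible. Leaving out 1 sample in turn gave 31 to 47 for WT PGCs against somatic cells, 30 to 47 and 0 to 16 for the steps of WT PGCs, 24 to 46, 22 to 30 and 0 to 3 for smg against WT PGCs, 1 to 3 and 6 to 13 for the steps of smg PGCs, and 12 to 28 and 1 to 6 for the differences of steps. The causes were not tested. Signals near the top of the scale limit how far bright members can rise.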
